A study of Mus musculus with 4 samples.

Results

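The Hist1 cluster holds most of the mouse genes for the replication-dependent histones, and its CTCF binding in adult heart is described here. Its members were the protein-coding genes on chromosome 13 of mm10 whose symbol starts with Hist1h, 54 of 21938 protein-coding genes in all. By symbol they comprised 6 genes for the linker histone H1, 13 for H2A, 15 for H2B, 9 for H3 and 11 for H4. CTCF was measured by ChIP-seq in heart tissue of female adult B6CASTF1/J mice, 2 months old, a cross of C57BL/6J with CAST/EiJ, with no treatment and no second genotype. There were 2 pools, called G and H, each of 2 heart biosamples and each sequenced as 2 technical libraries, so the replicates are pools and not single animals. The design holds no contrast between conditions, so every comparison below is a description without a test. The alignments to one mouse build were made from hybrid animals, and any effect of the CAST allele on the peaks was not tested. CTCF peaks carry no expression values, so the heart label was not checked against marker genes.

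Replication-dependent histone genes are short, lack introns in their classical form and give messages that end in a stem-loop in place of a poly(A) tail, made mainly while cells copy their DNA. H2A and H2B genes often stand head to head and share the promoter between them, and the histone locus body, built around the factor NPAT, assembles on such clusters. CTCF is a zinc-finger protein that binds an asymmetric DNA motif, blocks or anchors loops of chromatin made with cohesin, and is known for sites at the edges of gene clusters. Most cells of the adult heart have left the cell cycle.

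A peak is a position in the authors' conservative list, the smaller of their 2 thresholded lists made from both pools, which held 54309 peaks at an irreproducible discovery rate (IDR) of 0.05 or less. The signal of a peak is the score deposited by the authors, with no stated unit, and its median over that list was 286. A gene was counted as having a promoter peak when a summit lay within 1 kb of one of its transcription start sites (TSSs). Gene positions are those of GENCODE M21 and all coordinates are mm10. A CTCF core means the best match to the 12-base CTCF core on either strand within 100 bp of the summit, with at most 1 mismatch unless stated.

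The 4 strongest of the peaks within 1 kb of a Hist1h TSS are shown first by their sequence. Each line below gives 32 bases of mm10, read 5′ to 3′ on the stated strand, with the 12 bases of the core match in capitals. Hist1h4j and Hist1h4c matched the core exactly, Hist1h3e had 1 mismatch and Hist1h4f had 2 mismatches.
Hist1h4j peak, chr13:21734271-21734302, minus strand: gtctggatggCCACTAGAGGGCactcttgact
Hist1h4c peak, chr13:23697553-23697584, minus strand: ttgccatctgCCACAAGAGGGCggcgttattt
Hist1h3e peak, chr13:23563306-23563337, minus strand: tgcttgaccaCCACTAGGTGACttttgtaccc
Hist1h4f peak, chr13:23551667-23551698, minus strand: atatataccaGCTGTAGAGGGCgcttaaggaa

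A second set shows the core matches at strong summits between and beside the histone genes, all above the median signal of the region. The summits before subcluster A, in the intron of Hist1h2be and after subcluster C matched exactly, and the others had 1 mismatch.
Before subcluster A, chr13:21714902-21714933, plus strand: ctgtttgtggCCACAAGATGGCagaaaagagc
After subcluster B, chr13:22044309-22044340, minus strand: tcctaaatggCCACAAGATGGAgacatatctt
Before subcluster C, chr13:23524806-23524837, minus strand: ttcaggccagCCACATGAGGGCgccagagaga
Intron of Hist1h2be, chr13:23598165-23598196, minus strand: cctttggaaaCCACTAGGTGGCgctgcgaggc
Before Hist1h1c, chr13:23732658-23732689, minus strand: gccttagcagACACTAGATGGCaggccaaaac
After subcluster C, chr13:23792666-23792697, plus strand: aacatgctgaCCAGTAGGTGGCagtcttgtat

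Of the 54 Hist1h genes, 13 had a promoter peak, or 24.1%, against 34.6% of all protein-coding genes (7580 of 21938) and 32.3% of the 838 on chromosome 13. These shares count any TSS of a gene. With 1 TSS per gene the count was again 13 of 54, against 27.1% of all protein-coding genes. The difference was not tested, since neighbouring histone genes share peaks and sequence. The 13 genes shared 11 distinct summits. By type, 3 of 11 H4 genes, 3 of 9 H3 genes, 3 of 13 H2A genes, 3 of 15 H2B genes and 1 of 6 H1 genes had one. These 11 summits had a median signal of 131, from 75.3 to 704, against 241 over the 9229 promoter peaks of protein-coding genes. The signals fell into a group of 4 strong peaks, the weakest at 500, and a group of 7 weak peaks, the strongest at 159.

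**Figure D1:**
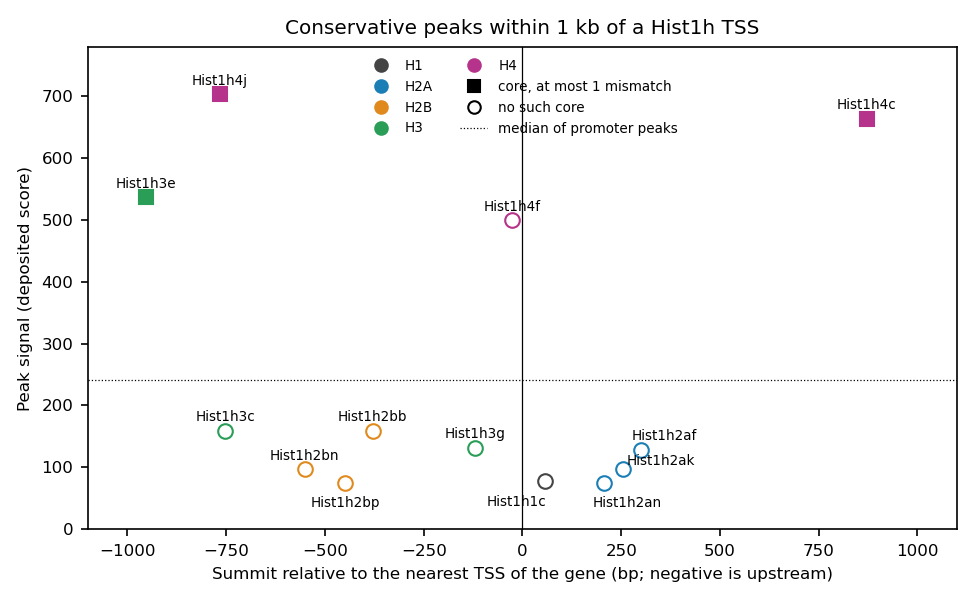
Signal of the promoter peak of each of the 13 Hist1h genes (vertical axis, deposited score) against the position of its summit relative to the TSS in bp (horizontal axis), coloured by histone type. Filled squares have a CTCF core with at most 1 mismatch, open circles have none, the dotted line is the median of all promoter peaks (241), and for Hist1h3c the stronger of 2 summits is drawn. The 4 strong peaks belong to 3 H4 genes and 1 H3 gene, and 3 of them carry a core.

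The core-histone genes for H4 held 3 of the 4 strong promoter peaks. Hist1h4j had the strongest, at chr13:21734071-21734539, with a signal of 704 and its summit 766 bp upstream of the TSS. Called in each pool alone, its signal was 374 in pool G and 336 in pool H. Hist1h4c followed with 664, at chr13:23697363-23697850, and with 360 in pool G and 308 in pool H. The Hist1h4c summit lay 872 bp downstream of the TSS and 53 bp beyond the 3′ end of the gene, so it counts as a promoter peak by distance only. Hist1h4f had a signal of 500 at chr13:23551477-23551912, with 289 in pool G and 219 in pool H. It was the only one of the 4 strong peaks whose summit stood at a start site, 26 bp upstream of it. The remaining 8 H4 genes had no promoter peak, and the first of them along the chromosome were Hist1h4k and Hist1h4m.

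Among the genes for H3, the histone whose tail carries many of the known chromatin marks, Hist1h3e had the only strong peak. It lay at chr13:23563104-23563508 with a signal of 537, its summit 953 bp upstream of the TSS and therefore close to the limit of the window. The pool values were 302 in pool G and 232 in pool H. Hist1h3c had 2 summits. One had a signal of 113 at 46 bp downstream of its TSS, with 67.1 in pool G and 46.2 in pool H. The other had 159 at 753 bp upstream, with 94.5 in pool G and 63.8 in pool H, and was also the promoter peak of the neighbouring Hist1h2bb, 379 bp upstream of that gene's TSS. Hist1h3g had a signal of 131, its summit 120 bp upstream, with 68.6 in pool G and 63.6 in pool H. Neither Hist1h3g nor the Hist1h3c and Hist1h2bb summits had a core at 1 mismatch. Hist1h3h and Hist1h3i, the first H3 genes without a promoter peak, each had a candidate in the list of all candidates ranked between pools, with signals of 21.4 and 40.4.

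The H2A genes had promoter peaks inside their coding sequence. The summits stood 299 bp downstream of the TSS in Hist1h2af, 255 bp in Hist1h2ak and 206 bp in Hist1h2an. Their signals were 127, 97.3 and 75.3. Hist1h2af had 69.7 in pool G and 59.5 in pool H, and Hist1h2ak had 56.1 in pool G and 40.8 in pool H. Hist1h2an had 43.1 in pool G and 33.7 in pool H. The 3 genes kept 1 order in both pools, which is no independent check, since the conservative list was made from these pools. The Hist1h2ak peak passed the IDR threshold in pool G only and the Hist1h2an peak in pool H only. The summits of Hist1h2ak and Hist1h2an were also within 1 kb of the TSSs of the divergent partners Hist1h2bn and Hist1h2bp, 551 and 449 bp upstream of them. All promoter peaks of H2B genes were thus shared with a neighbour. The first H2A and H2B genes without a promoter peak, Hist1h2ai and Hist1h2bl, form a divergent pair and shared a candidate with a signal of 34.2 in the list ranked between pools.

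The H2A coding sequences are nearly the same from gene to gene, and the peaks lay in shared stretches. The 61 coding bases centred on each summit were compared with the same bases of the other 12 H2A genes. Identity was 93.4% to 98.4% for the Hist1h2af stretch, 95.1% to 98.4% for Hist1h2ak and 90.2% to 100% for Hist1h2an, the lowest value each time being that of the testis gene Hist1h2aa. Of the other 12 genes, 2 had a summit within 100 bp of the corresponding base, namely the other members of the trio. The best core match near these coding positions had 2 mismatches in every H2A gene, with or without a peak. The core matches at the summits of the trio read as follows, in the coding direction, with the 12 bases in capitals.
Hist1h2af coding sequence, chr13:23534149-23534180, plus strand: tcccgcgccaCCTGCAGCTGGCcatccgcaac
Hist1h2ak coding sequence, chr13:21753558-21753589, minus strand: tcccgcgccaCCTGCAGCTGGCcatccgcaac
Hist1h2an coding sequence, chr13:21787009-21787040, minus strand: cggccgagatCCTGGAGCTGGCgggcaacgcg

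Reads from such stretches can be hard to place. Within 100 bp of the summit, 34.3% of 36-base words occurred only once in the genome for Hist1h2af, 29.5% for Hist1h2ak and 0% for Hist1h2an. At the shared Hist1h3c and Hist1h2bb summit the value was 53.0%, at Hist1h4f 89.2%, and at Hist1h4j, Hist1h4c and Hist1h3e 100%. The other weak summits were nearly or fully unique, with 100% at Hist1h3g and Hist1h1c and 95.2% at the summit of Hist1h3c next to its TSS. From the lists alone it cannot be told apart which H2A genes the reads of the weak coding peaks came from, and the treatment of reads with several matches was not given in the sources used here.

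Hist1h1c was the only H1 gene with a promoter peak. H1 binds the linker DNA between nucleosomes, and Hist1h1c is one of its somatic variants. The peak lay at chr13:23738654-23739073 with a signal of 78.5, its summit 56 bp downstream of the TSS in the coding sequence, with 42.4 in pool G and 34.0 in pool H. Its scaled IDR of 768 was the only one of the 11 below 1000, and it did not pass the threshold in the pool H list. Hist1h1b, the first H1 gene without a peak, had a candidate of 17.0, and Hist1h1d had none within 1 kb of its GENCODE TSS. The RefSeq TSS of Hist1h1d stands 1770 bp further downstream, and a candidate lay within 1 kb of that position.

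Of the 11 promoter summits of Hist1h genes, 3 had a core, against 38.9% of the 9229 promoter peaks of protein-coding genes and 66% of all peaks. Windows shifted by 1 kb from all summits held one in 5.55% of cases. The 3 Hist1h peaks with a core had a median signal of 664 and the 8 without one 120, and over all promoter peaks the medians were 414 with a core and 183 without. An exact core was found at 2 of the 11, against 14.3% of all promoter peaks. The sequence near the genes held few cores at any position, though windows of neighbouring Hist1h genes overlap and can share a core. A core lay within 1 kb of the TSS in 9 of 54 Hist1h genes, or 16.7%, against 37.1% of the other 784 protein-coding genes on chromosome 13. Of those 9 genes, 3 had a promoter peak, and of the 45 without a core, 10 had one. For the other genes of the chromosome the shares were 39.9% of 291 with a core and 19.5% of 493 without. These comparison shares count 1 TSS per gene, whereas the 32.3% given above for chromosome 13 counts any TSS.

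**Figure D2:**
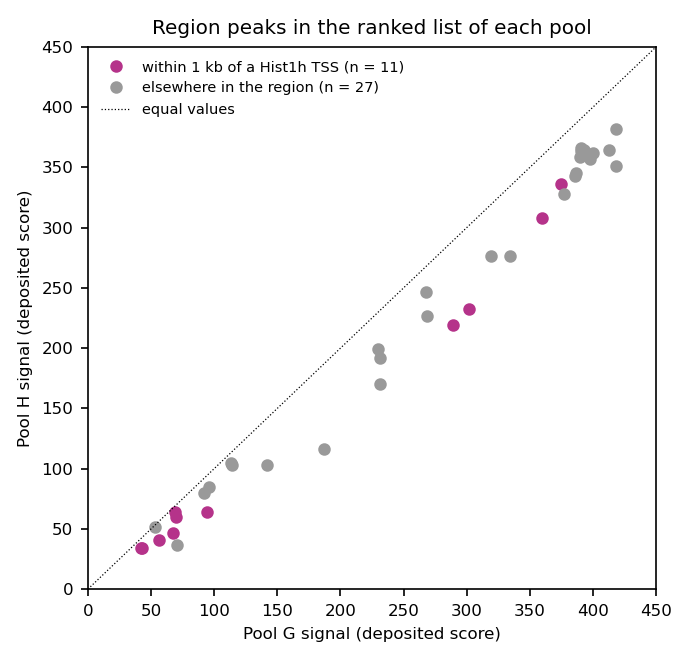
Signal of the 38 region peaks in the ranked list of pool G (horizontal axis) and pool H (vertical axis), both the deposited score. Purple points are the 11 promoter summits of Hist1h genes, grey points the 27 other summits, and the dotted line marks equal values. Every point lies below the line, and the strong and the weak promoter peaks are the same in both pools. That split was drawn on a list made from both pools.

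In both pools the 4 strong promoter peaks stood above the 7 weak ones, with 289 to 374 against 42.4 to 94.5 in pool G, and 219 to 336 against 33.7 to 63.8 in pool H. The groups were drawn on the conservative list, which was made from these same pools and keeps reproducible peaks. Their order within each pool is therefore no independent check. All 11 had a higher signal in pool G than in pool H. The median ratio of pool G to pool H was 1.28 over these 11 and 1.15 over the 38 peaks of the region, and the median signal of the whole thresholded list was 152 in pool G and 135 in pool H. Read depth is unknown and the score has no stated unit, so no difference between pools was read from these values. Of the 11 peaks, 10 passed the threshold with pool G alone and 9 with pool H alone.

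The share of Hist1h genes with a promoter summit depended on the list. The second thresholded list made from both pools gave 18 genes, or 33.3%, against 38.9% of all protein-coding genes. The pool G list gave 16, or 29.6%, against 34.4%, and the pool H list gave 12, or 22.2%, against 32.8%. Conservative peaks at an IDR of 0.01 or less gave 12 genes, against 33% of all protein-coding genes, and summits within 500 bp gave 9, against 28.1%. Summits within 5 kb gave 26 genes, against 53.8%. With 1 TSS per gene the count was 13, against 27.1%, and by overlap of the peak interval it was 15, against 36.1%. The additional genes of the second list were Hist1h2ae and Hist1h2bg, which share a divergent promoter and a summit with a signal of 105, Hist1h2ab and Hist1h3b, which share one of 93.1, and Hist1h2bm with 66.4. Among all candidates ranked between pools, which include peaks far from the threshold, 41 Hist1h genes had a summit, or 75.9%, against 63.5% of all protein-coding genes. With any TSS counted, their share thus stood below the background in the 4 thresholded lists and above it among the candidates. Genes with several TSSs have more windows in which a summit can fall. With 1 TSS per gene the gap in the conservative list was smaller, at 13 of 54 against 27.1%, and the other lists were not recounted in this way. The 28 genes with such a candidate but no conservative peak had a median best signal of 39.3, from 12.6 to 105.

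**Figure D3:**
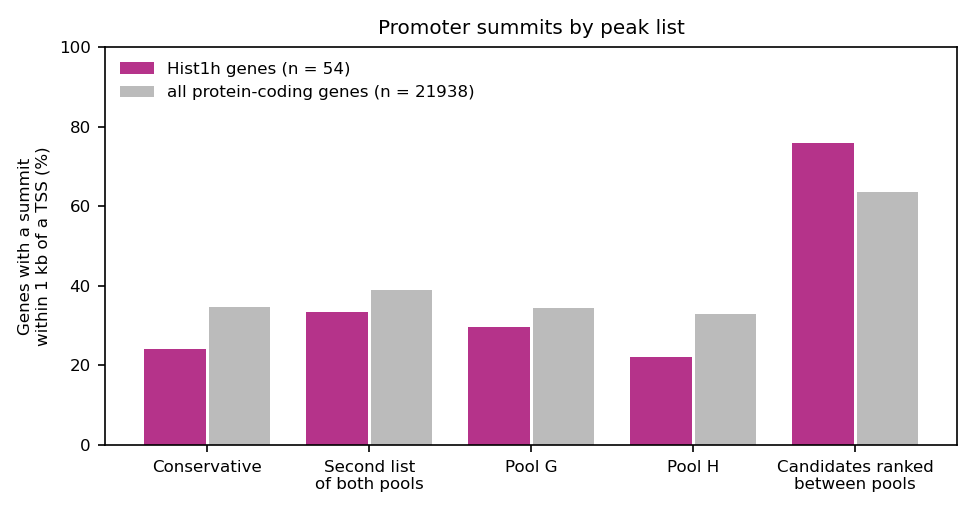
Percent of genes with a summit within 1 kb of a TSS (vertical axis) for the 54 Hist1h genes (purple) and all 21938 protein-coding genes (grey), in the 4 thresholded lists and in the list of candidates ranked between pools. Hist1h genes had 24.1% against 34.6% in the conservative list and 75.9% against 63.5% among candidates.

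In 43 of the 54 genes at least 1 of the 4 ranked lists held a candidate, or 79.6%, against 67% of all protein-coding genes, and 11 genes had none. Of these 11, 6 were the last genes of subcluster A, namely Hist1h2bq, Hist1h2ao, Hist1h4m, Hist1h4n, Hist1h2ap and Hist1h2br. In those 6, between 0% and 7.73% of the 36-base words within 250 bp of the TSS occurred once in the genome. Hist1h4k, with 43.8%, and Hist1h1d, with 100%, were further genes without a candidate. The other 3 were Hist1h1t, Hist1h2ba and Hist1h2aa, known as testis histone genes, at 100%, 97.2% and 100%. Uniqueness was thus under 10% in 6 of the 11 genes, 43.8% in Hist1h4k and 97.2% to 100% in Hist1h1d and the testis genes. Both the value and the missing candidate of Hist1h1d belong to its GENCODE TSS, and with RefSeq TSSs 10 genes had no candidate. The part of uniqueness in the missing candidates was not tested.

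**Figure D4:**
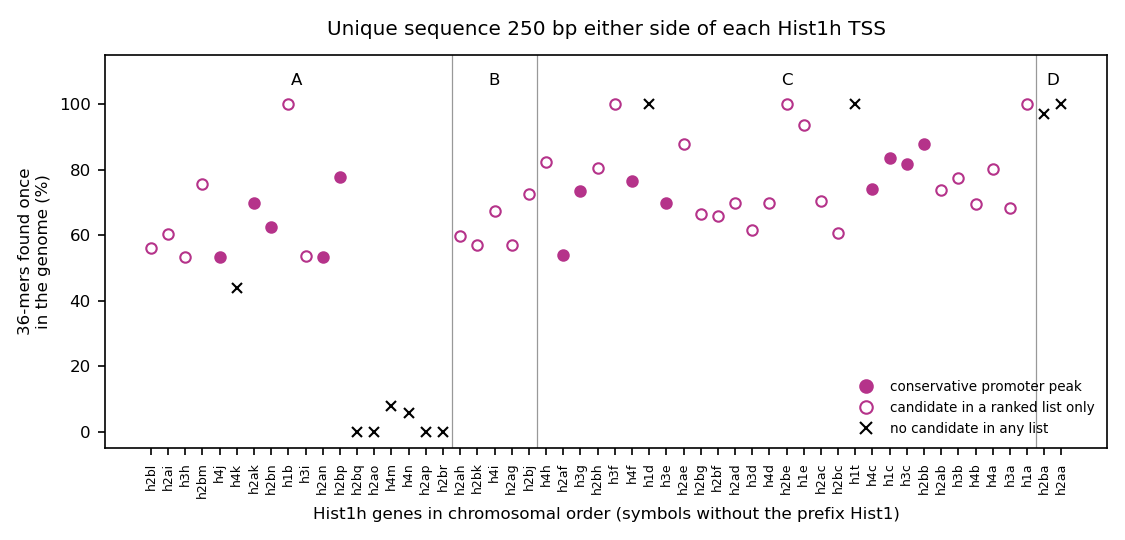
Percent of 36-base words within 250 bp of each Hist1h TSS that occur once in the genome (vertical axis), with the 54 genes in chromosomal order and the subclusters A to D separated by grey lines. Filled circles have a conservative promoter peak, open circles a candidate only, and crosses no candidate in any ranked list. The 6 genes under 10% are the last of subcluster A, and all are crosses.

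Over all 54 genes the median share of such unique words was 69.9%, from 0% to 100%, against 100% for the other 784 protein-coding genes of chromosome 13. Only 9 Hist1h genes reached 90%, against 657 of those 784. The 13 genes with a promoter peak had a median of 73.6%, from 53.2% to 88.0%, and the 41 without one 69.5%, from 0% to 100%. H1 genes, which differ more from each other, had a median of 100%, H2A genes 60.5%, H2B genes 66.5%, H3 genes 69.7% and H4 genes 69.5%.

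The promoters of Hist1h genes held the known histone elements by type. RefSeq promoters of GRCm38.p6, which run from 250 bases before to 50 after the TSS, were at hand for 50 of the 54 genes. The octamer ATTTGCAT, bound by the factor Pou2f1, was in 5 of 12 H2A and 6 of 14 H2B promoters and in none of the H1, H3 and H4 promoters. That made 22% of the Hist1h promoters, against 1.66% of 21263 promoters of protein-coding genes, and H2A and H2B promoters of a pair overlap. The H1 box AAACACA was in 5 of 6 H1, 2 of 12 H2A and 2 of 14 H2B promoters and in none of the H3 and H4 promoters. That made 18% of all Hist1h promoters, against 6.15% of protein-coding promoters. CCAAT was in every H1, H2A, H2B and H3 promoter at hand and in 3 of 11 H4 promoters, which made 84% against 38.2%. TATAAA was in 62% of Hist1h promoters, against 12.6%. All letters were searched on both strands as exact matches, so other forms of an element were not counted.

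The 150 bases before the RefSeq TSS are shown for 3 genes with a promoter peak, 1 each of the types H4, H2B and H1. Capitals mark the 4 elements in either direction and, in Hist1h4f, the core match with 2 mismatches. In Hist1h4f no exact match to any of the 4 elements was found in this stretch, and the core match lay just before the TSS. The Hist1h2bb stretch held the octamer, CCAAT and TATAAA but no H1 box, and its CTCF summit lay 379 bp upstream of the TSS, outside the stretch. The Hist1h1c stretch held the H1 box and CCAAT but neither the octamer nor TATAAA, and its summit lay 56 bp downstream of the TSS, also outside.
Hist1h4f promoter, chr13:23551669-23551818, minus strand: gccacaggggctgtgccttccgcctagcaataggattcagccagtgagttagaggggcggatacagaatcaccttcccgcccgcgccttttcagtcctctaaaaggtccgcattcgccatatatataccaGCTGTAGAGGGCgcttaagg
Hist1h2bb promoter, chr13:23746584-23746733, plus strand: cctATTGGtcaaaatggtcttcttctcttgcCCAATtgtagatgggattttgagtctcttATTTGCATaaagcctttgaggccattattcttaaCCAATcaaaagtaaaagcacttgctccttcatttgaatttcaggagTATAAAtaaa
Hist1h1c promoter, chr13:23738657-23738806, plus strand: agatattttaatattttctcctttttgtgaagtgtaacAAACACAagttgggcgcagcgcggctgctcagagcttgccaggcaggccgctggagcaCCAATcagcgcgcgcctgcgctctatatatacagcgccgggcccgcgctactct

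Most H2A and H2B genes stood in divergent pairs. There were 11 pairs of an H2A and an H2B gene with TSSs 176 to 306 bp apart, with a median of 268 bp. In 2 of the 11, Hist1h2ak with Hist1h2bn and Hist1h2an with Hist1h2bp, a summit lay within 1 kb, in each case in the H2A coding sequence and not between the TSSs. The share over all divergent pairs of the genome was not computed. The pair of Hist1h2bh and Hist1h3f, whose TSSs are 660 bp apart, had none.

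The genes formed 4 subclusters, named here by runs with no gap over 100 kb between neighbours. Subcluster A ran from Hist1h2bl to Hist1h2br at chr13:21715763-21837530 with 18 genes, and subcluster B from Hist1h2ah to Hist1h2bj at chr13:22035164-22043676 with 5. Subcluster C ran from Hist1h4h to Hist1h1a at chr13:23531050-23764406 with 29 genes, and subcluster D held Hist1h2ba and Hist1h2aa at chr13:23933773-23934851. From 100 kb before the first to 100 kb after the last gene the region spanned 2419 kb and held 38 summits. That is 1.57 summits per 100 kb, against 1.78 on chromosome 13 and 1.99 over the genome. The median signal of the 38 was 496, against 278 on chromosome 13 and 286 over all peaks.

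**Figure D5:**
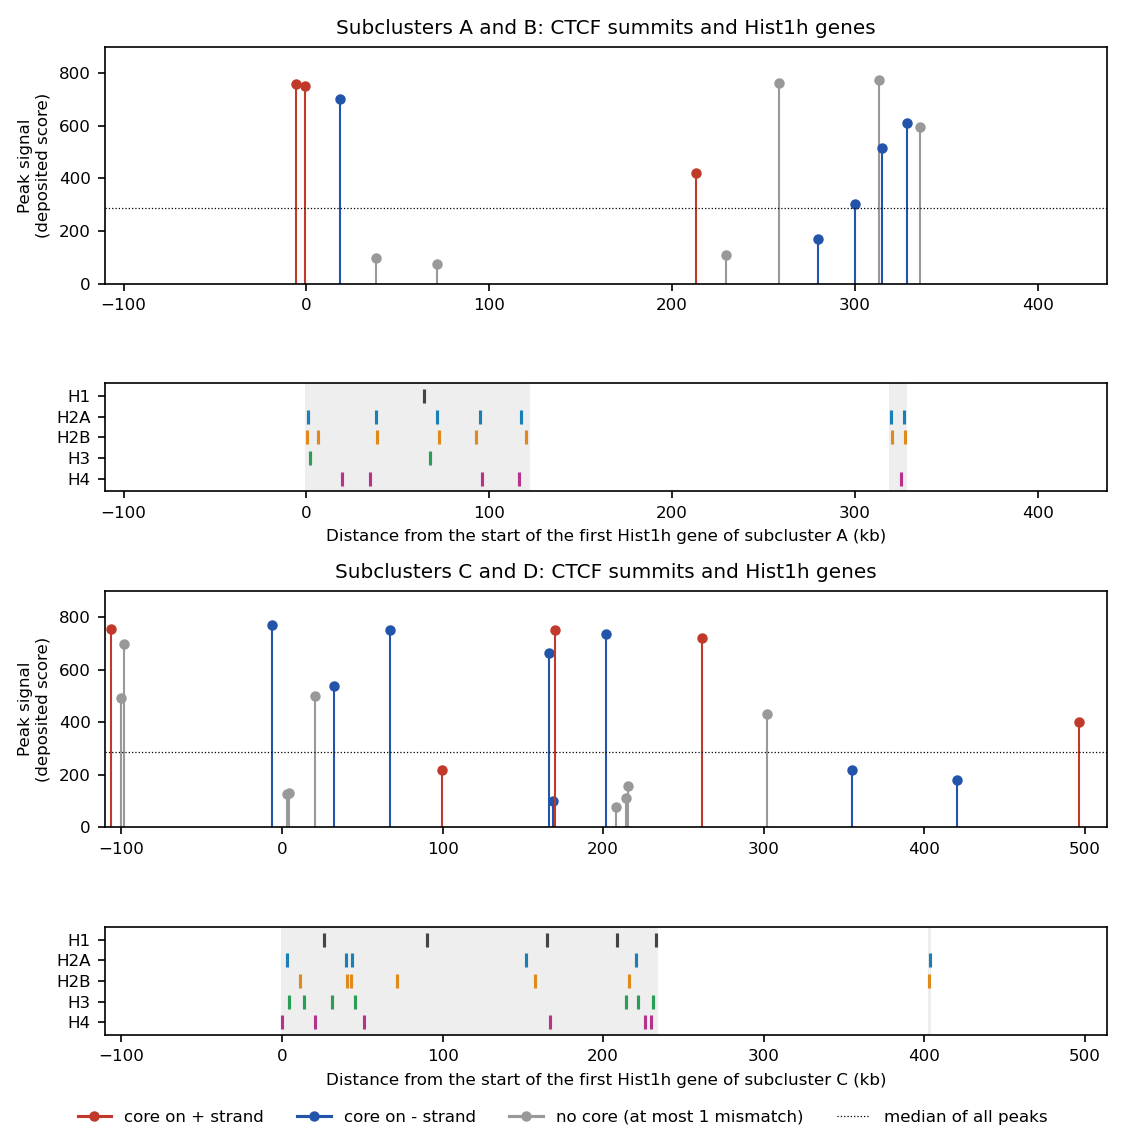
CTCF summits (upper part of each pair, height in the deposited score) and Hist1h genes by type (lower part, subclusters shaded) along 2 stretches, with the distance in kb from the first Hist1h gene of subcluster A and of subcluster C. Red marks a core on the plus strand, blue a core on the minus strand, grey no core with at most 1 mismatch, and the dotted line the median of all peaks (286). Strong summits stand beside subclusters A, B and C, and the right end of subcluster A holds none. Few 36-base words near the TSSs of that end occur only once in the genome.

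The summits were spread unevenly over these subclusters. Subcluster C held 13, or 5.57 per 100 kb, of which 7 had a core, against 66% of all peaks. Subcluster A held 3, or 2.46 per 100 kb. Subclusters B and D held 0, but they are only 8.51 and 1.08 kb long, too short for that count to show a lack of summits. The 3 summits of subcluster A were those of Hist1h4j, Hist1h2ak with Hist1h2bn, and Hist1h2an with Hist1h2bp. Its last 6 genes were thus between 23.2 and 46.7 kb from any summit. In those 6 genes at most 7.73% of the 36-base words near the TSS were unique, which limits what the missing summits can show. The stretch between A and B held 7 summits, or 3.54 per 100 kb, and the second strongest of them, at 21974343 near Pom121l2, had a signal of 763 with a best core match at 2 mismatches. The 1487 kb between B and C, where 36 of the 40 protein-coding genes are Vmn1r vomeronasal receptor genes, held 8, or 0.538 per 100 kb. The longest stretch without a summit lay there, from 22051129 to 23297979, and measured 1247 kb. The share of unique words was not computed along that stretch, which limits what its lack of summits can show.

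Away from the promoters of histone genes the peaks of the region were strong. The 27 summits that were not within 1 kb of a Hist1h TSS had a median signal of 595 and 19 of them had a core, against 131 and 3 of 11 at the Hist1h promoters. A core was present at 66% of all peaks and at 38.9% of the promoter peaks of protein-coding genes. Of the 27, 20 were at or above the median of all peaks, and of the 11, 4 were. In all, 12 of the 38 region peaks had a signal of 700 or more, or 31.6%, against 12.7% of the whole list. The median distance from a Hist1h TSS to the nearest summit was 5.57 kb. Of the 54 genes, 26 had one within 5 kb, against 53.8% of all protein-coding genes, and 36 within 10 kb. No share over all genes is given for 10 kb or for the median distance.

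The 3 strongest peaks inside subcluster C lay outside the promoter windows of Hist1h genes. The summit at 23598201, in an annotated intron of the long Hist1h2be transcript, had a signal of 752, with 390 in pool G and 363 in pool H, and an exact core on the minus strand. The summit at 23701381, between Hist1h4c and Hist1h1c, also had 752, with 390 in pool G and 359 in pool H and a core on the plus strand. The summit at 23732695, before Hist1h1c, had 735, with 387 in pool G and 345 in pool H and a core on the minus strand.

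At the outer edges the summits stood close to the first and last genes of some subclusters. Before subcluster A, a summit at 21714913 lay 0.85 kb outside the first gene and 1230 bp past the TSS of Hist1h2bl, just beyond the promoter window. Its signal was 753, with 390 in pool G and 366 in pool H, and its exact core was on the plus strand. A further summit at 21710088 had 759 with a core on the same strand. The first summit after subcluster A came only 91.2 kb further, with a signal of 419 and a core on the plus strand.

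Subcluster B, which held no summit, had one close to each side. Before it, 4.52 kb away, stood a summit with a signal of 515 and a core on the minus strand. After it, 0.651 kb away and 1113 bp from the TSS of Hist1h2bj, stood one with 612, with 334 in pool G and 276 in pool H, also with a core on the minus strand. Both Hist1h2bj and Hist1h2bl thus missed the 1 kb window by a short distance. The second strongest summit of the region, 775 at 22028865, lay before subcluster B, with Hist1h2ah as the nearest gene, and had no core even at 2 mismatches.

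Around subcluster C the nearest outer cores pointed away from each other. The summit before it, 6.23 kb from Hist1h4h, had a signal of 770, with 418 in pool G and 351 in pool H, and a core on the minus strand. The summit after it, 28.3 kb from Hist1h1a, had 722, with 386 in pool G and 343 in pool H, and an exact core on the plus strand. The strongest summit of the region, 794 at 23401821, had an exact core on the minus strand and lay near Abt1, a gene between B and C. A further summit of 756 at 23424632 was the promoter peak of Abt1, 766 bp upstream of its TSS. Subcluster D, with the testis genes Hist1h2ba and Hist1h2aa, had only weaker summits nearby. One stood 48.0 kb before it with a signal of 219 and one 16.3 kb after it with 181, both with a core on the minus strand.

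Over the region, 22 of 38 summits had a core, 8 on the plus strand and 14 on the minus strand. The share with a core over all peaks was 66%. The nearest outer cores read plus and plus around A, minus and minus around B, minus and plus around C, and minus and minus around D. No subcluster thus had nearest outer cores that faced each other, and with 4 subclusters and 8 borders nothing was read from the pattern.

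Histone genes outside the cluster, which include replication-independent variants, are given for comparison. Of 28 such genes, 12 had a promoter peak, or 42.9%, with a median signal of 298 over the genes, and 3 had a core. Hist2h2ac and Hist2h2be share 1 peak with a signal of 102, which counts for each of them. The Hist1h median of 131 is over distinct summits and is thus a different measure. Of all promoter peaks of protein-coding genes, 38.9% had a core. The strongest were H3f3b with 747 and H2afz with 699, which encode the variants H3.3 and H2A.Z, then Hist2h4 with 641 and Hist3h2a with 594. Cenpa, H1f0 and H1foo had none. Of 23 genes for factors of histone expression and deposition, 10 had a promoter peak, or 43.5%, with a median signal of 403, and 3 had a core. Coil, which encodes coilin, had 704, Asf1b 612, Pou2f1 608 and Asf1a 466. Casp8ap2, Chaf1a and Cpsf2 had none, while Npat had one of 401. Both shares stood beside 34.6% over all protein-coding genes and 24.1% for the Hist1h genes, and the differences were not tested.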

How the data were processed

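The 8 peak lists deposited by the authors were used, 4 thresholded and 4 ranked, on mm10. Per the readme texts deposited with the samples, each list derives from pool G, pool H or both. The signal per peak was deposited by the authors with no stated unit. The authors also deposited a score, the scaled IDR, in which 540 means an IDR of 0.05 and 830 one of 0.01. The aligner, the peak caller and the handling of reads with several matches were not given in the sources used here. Read depth is unknown, so no interval or floor is given. The samples of a pool are technical libraries, and no list gives a value per library.

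Summits were assigned to GENCODE M21 TSSs, and sequence came from GRCm38.p6 and RefSeq tables, in which all 54 genes were matched by older symbol. Pool values are those of the nearest summit within 100 bp in the ranked list of that pool. Named were, per histone type, the 3 genes of highest promoter signal, the first 2 genes lacking a promoter peak, the 10 strongest summits, the nearest summits beside each subcluster and the strongest genes of the lists of other histone genes and factors; further genes were named after their values were seen. The members and lists were chosen with earlier results of these data known. Scans were tested on simulated data. Python 3.11.15, numpy 2.4.6, pandas 2.3.3, numba 0.67.0 and matplotlib 3.10.9 were used.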

Additional observations from a re-analysis of the deposited data

How the results depend on the processing

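The count of 13 Hist1h genes with a promoter peak ranged from 12 to 16 with 1 pool left out, was 18 in the second list, 12 at an IDR of 0.01, 9 within 500 bp, 15 by overlap of the peak interval and 13 with 1 TSS per gene. It was also 13 with RefSeq TSSs, an alternative chosen after seeing the data. Within 5 kb it was 26. The 3 promoter peaks with a core became 2 for an exact core and 9 with at most 2 mismatches. The cores on the plus strand numbered 2 and those on the minus strand 5 when an exact match was asked for. The region held 37 to 44 summits under the alternatives tried. The median percent of a list with a lower signal than the Hist1h promoter peaks was 24.1 in the conservative list, 25.2 to 28.5 with 1 pool left out and 35.5 in the second list. Genes with at least 90% unique words numbered 9 with 36-base and 11 with 50-base words. Counts per histone type moved by over 1.5 times in 11 of 45 recomputed values. No paired analysis was possible because no result comes from a test. Near-identical gene copies and unknown depth limit what an absent peak can show.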
